A study of Mus musculus with 8 samples.

Results

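Fluocinolone acetonide (FA), a glucocorticoid used in skin creams, was compared with vehicle in the epidermis of wild-type mice. The comparison rested on 4 of the 8 arrays of the series, 2 for wild-type vehicle and 2 for wild-type FA, chosen by their labels. The other 4 arrays, from mice that lack REDD1 (REDD1 KO, in which a LacZ/neo cassette replaces exon 2 of Ddit4), entered the fit for its estimate of spread and are set beside the wild-type values at the end. FA was given on the skin at 2 µg in acetone, vehicle mice had acetone alone, and epidermal RNA was taken after 24 h. The animals were females 7 weeks old in telogen, the resting stage of the hair cycle, and the array columns of the study stand for individual animals. The sources differ on the mice: the study describes isogenic B6x129 wild-type animals and treated back skin, while the sample labels give the strain as B6D2, the tissue as the posterior ear lobe and the controls as untreated. Beside the separate titles, nothing in the labels ties an array to an animal, so the p-values measure the spread between these arrays.

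Glucocorticoids bind the glucocorticoid receptor (GR), a transcription factor that then enters the nucleus. The receptor raises some genes by binding a palindromic DNA element, and lowers others, many of them inflammatory, largely by acting on other factors such as NF-kB and AP-1. In skin these drugs are known for their anti-inflammatory action and for thinning the epidermis, in which basal keratinocytes divide and suprabasal keratinocytes differentiate into the lipid-sealed cornified layer. Langerhans cells and resident T cells live among the keratinocytes.

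Signals were normalized log2 bead intensities. A probe was detected on an array at a detection p under 0.05, and 13131 probes detected on at least 2 of the 8 arrays were tested, for 9343 genes. The 2 wild-type vehicle arrays correlated at 0.983 and the 2 FA arrays at 0.990. Keratinocyte markers were the brightest of 12 marker lists, with a summed linear signal of 59560 to 69340 on the wild-type arrays. Endothelial markers summed to 122 to 151 and adipocyte markers to 86.3 to 109. Of 10 adipocyte markers, 4 passed the filter. Skeletal muscle markers summed to 1736 and 1841 on the vehicle arrays and to 4721 and 1384 on the FA arrays, so that FA replicate 1 stood apart. None of the 13 muscle markers tested was called.

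In wild-type epidermis, 417 probes rose with FA (3.18% of those tested) and 416 fell (3.17%) at an adjusted p under 0.05, the threshold for every call below. The median log2 change was 1.08 among the rises and -0.95 among the falls. Among the rises, 235 exceeded a log2 change of 1 and 52 exceeded 2. Among the falls, 193 and 27 did. In no called probe did the FA arrays overlap the vehicle arrays. With each gene read from its brightest probe, 307 genes rose (3.29%) and 341 fell (3.65%), and the median over all 9343 genes was -0.03. These shares are the background for every count of called list members below. The FA arrays lay entirely above the vehicle arrays in 23.8% of genes and entirely below in 30.3%. The numbers of called genes fell to 54 rises and 59 falls without FA replicate 2, to 82 and 61 without FA replicate 1, to 150 and 149 without vehicle replicate 2, and to 170 and 218 without vehicle replicate 1. Of 183 called genes described by the lists or by the size of their change, 48 kept their call without each of these arrays in turn. These are called stable below. V1 and V2 stand for vehicle replicates 1 and 2 and F1 and F2 for FA replicates 1 and 2 where a call was lost without an array, and the adjusted p then given is the highest over the 4 arrays left out.

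**Figure D1:**
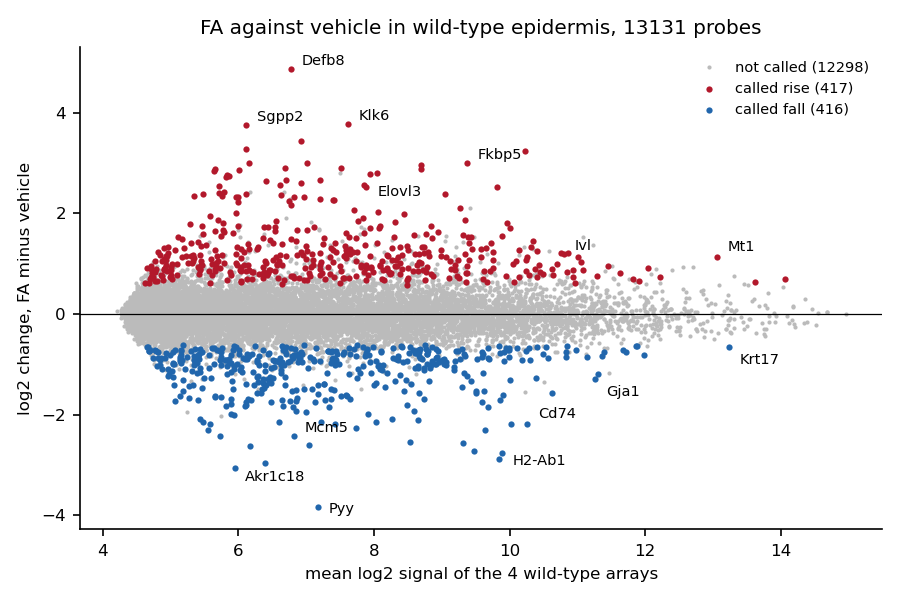
Log2 change with FA in wild-type epidermis (FA minus vehicle, vertical axis) against the mean log2 signal of the 4 wild-type arrays (horizontal axis) for 13131 probes. Red points are the 417 called rises and blue points the 416 called falls. The labelled genes include Sgpp2, which was below background on both vehicle arrays, and the bright Mt1.

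The classical GR targets were the first group examined. Of 32 tested members of this list, 15 rose, none fell, and all 32 had a change above 0, with a median log2 change of 0.79. The FA arrays lay above the vehicle arrays in 25, as they did in 23.8% of all genes. Fkbp5, a co-chaperone that lowers the receptor's affinity for hormone, had log2 signals of 9.31 and 6.45 in the vehicle arrays and 10.86 and 10.88 in the FA arrays. The FA values were nearly equal and the vehicle values lay far apart. The log2 change was 2.99 ± 0.69 (SE from the fit, here and below), 7.96-fold, with an adjusted p of 0.0362. Pdk4, a kinase that shuts pyruvate out of oxidation, went from 6.53 and 4.71 to 7.54 and 8.20, a change of 2.25 ± 0.51 (adjusted p = 0.0358). Irs2, an insulin receptor substrate, went from 7.95 and 6.95 to 9.50 and 9.39, a change of 1.99 ± 0.29 (adjusted p = 0.00682). In all 3 genes vehicle replicate 1 lay nearer the FA arrays than vehicle replicate 2.

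Ddit4, which encodes REDD1, an inhibitor of mTOR, had log2 signals of 10.08 and 9.16 with vehicle and 10.98 and 11.14 with FA. On the 4 REDD1 KO arrays it read 7.42, 7.09, 7.88 and 8.35, below every wild-type array. Its change was 1.44 ± 0.29 (2.72-fold, adjusted p = 0.0236). The cell cycle inhibitor Cdkn1c rose by 1.62 and the metal-binding metallothionein Mt1 by 1.13, from 12.69 and 12.31 to 13.89 and 13.36. Dusp1, a phosphatase that switches off MAP kinases, rose by 0.87, and Nfkbia, the inhibitor of NF-kB, by 0.85. Known targets that were not called included Tsc22d3 (GILZ), with 12.87 and 10.96 against 12.55 and 12.50, and Per1, with 9.74 and 8.42 against 9.29 and 9.34. In both, vehicle replicate 1 lay above the FA arrays and vehicle replicate 2 below them. The receptor gene Nr3c1 was near background on all arrays, at 5.13 and 4.33 against 4.55 and 4.54.

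These calls depended on single arrays. Without V2, 4 members of the list rose instead of 15. Without V1 there were 16, and without either FA array 2. The change of Fkbp5 was 1.57 without V2 and 4.42 without V1, and its call was lost without F1 or F2 (adjusted p up to 0.181). Pdk4 (1.34 without V2), Ddit4 (0.98 without V2), Nfkbia and Mt1 were each lost without V2, F1 or F2, with adjusted p-values of up to 0.194, 0.139, 0.222 and 0.172. Irs2 was lost without F1 or F2 (up to 0.0615), Cdkn1c without F2 (0.0797) and Dusp1 without each of the 4 arrays (up to 0.289).

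Promoter sequences from RefSeq (GRCm38.p6, 250 bases before to 50 after an annotated start) were searched for the receptor's element. Windows were at hand for 7599 of the 9343 tested genes. The full palindrome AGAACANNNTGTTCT was found in a window of 1 of these 7599 genes (0.0132%), the GR target Sgk1, a kinase that regulates ion transport. It lay in 1 of 6 windows listed for Sgk1, chr10:21993640-21993939 on the plus strand, and began at position -189 from that start. This window is printed because it alone held the element, and capitals mark the palindrome and a further TGTTCT hexamer.
Sgk1: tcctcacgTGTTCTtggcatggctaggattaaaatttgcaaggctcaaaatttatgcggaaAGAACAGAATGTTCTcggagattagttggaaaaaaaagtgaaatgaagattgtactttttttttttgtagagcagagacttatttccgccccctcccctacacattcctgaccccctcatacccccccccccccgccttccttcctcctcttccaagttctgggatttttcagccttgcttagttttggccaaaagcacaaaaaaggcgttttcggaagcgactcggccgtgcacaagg
Sgk1 itself had log2 signals of 11.16 and 11.23 with vehicle and 12.02 and 11.74 with FA. The FA arrays lay above the vehicle arrays, and the change of 0.69 ± 0.18 was not called (adjusted p = 0.0614). Sgk1 was named after its values were seen. The looser core ACANNNTGT, which the palindrome contains, was in windows of 7.82% of 243 called rises, 5.1% of 255 called falls and 5.2% of all tested genes. In the GR target list it was in 5 of 30, Glul, Lcn2, Map3k6, Mt1 and Sgk1. The hexamer AGAACA or TGTTCT was in 12.8% of the rises, 18.4% of the falls and 15.7% of all. These are matches of letters within 300 bases.

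The 2 vehicle arrays differed along gene groups. Of the 32 GR targets, 23 were higher in vehicle replicate 1 than in replicate 2, with a median difference of 0.40, and 10 were higher by more than 1 on the log2 scale. Over all tested genes 50.7% were higher in replicate 1, with a median of 0.01. Among the 209 genes that rose in REDD1 KO epidermis, 60.3% were higher in vehicle replicate 1. All 8 sebaceous gland markers tested were higher in vehicle replicate 1 (median 0.55) and none of them was higher in FA replicate 1 than in FA replicate 2. Of 21 late cornified envelope (LCE) and SPRR genes, 2 were higher in vehicle replicate 1, and the median was -0.66. Of 47 mitosis genes, 1 was, with a median of -0.74, and of 45 DNA replication genes 7 were, with a median of -0.55. Vehicle replicate 2 therefore had lower GR target and sebaceous marker signals and higher cell cycle signals than vehicle replicate 1. Their part in the changes with FA was not tested beyond leaving out each array.

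**Figure D2:**
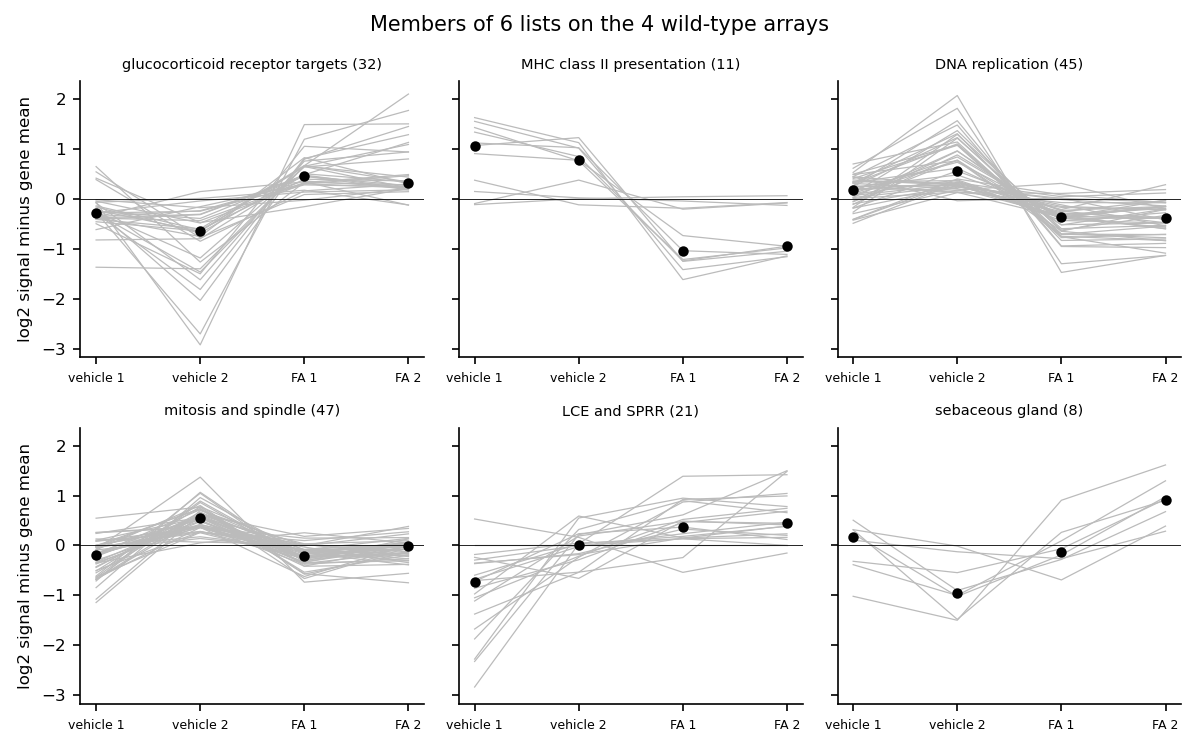
Log2 signal of each list member minus its mean over the 4 wild-type arrays (vertical axis), by array (horizontal axis), for 6 lists with the number of tested members in parentheses. Grey lines are genes and black points medians over the members; GR targets and mitosis genes differ between the vehicle arrays (medians of 0.40 and -0.74 for replicate 1 minus 2), and the 7 called MHC class II genes lie low on both FA arrays.

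Several of the largest rises lay outside the GR list. Slc25a33, a mitochondrial carrier of pyrimidine nucleotides, went from 5.42 and 5.05 to 7.62 and 8.64, a change of 2.90 ± 0.40 (7.45-fold, adjusted p = 0.00549). Tppp3, which binds tubulin, went from 6.996 and 7.51 to 10.09 and 10.17, a change of 2.88 ± 0.43 (adjusted p = 0.00723). Slc25a33 was stable, and the call of Tppp3 was lost without F1 or F2 (adjusted p up to 0.0648). Scgb2b27, a secretoglobin, was below background with vehicle (4.49 and 4.42) and reached 7.10 and 7.25, at least 5.81-fold higher (adjusted p = 0.000199). Mup2, a major urinary protein that binds small lipophilic molecules, rose by 2.90 ± 0.45 from 6.44 and 5.70 to 8.62 and 9.32, and was lost without F2 (2.56, adjusted p = 0.077). Both belong to families of near-identical genes whose probes may read several members.

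Nmu, the neuropeptide neuromedin U, was below background on both vehicle arrays (4.24 and 4.20) and read 5.93 and 8.25 with FA. It passed the detection filter only through these FA arrays, where it was high. The FA arrays differed more than the lower of them differed from vehicle. Its change of 2.88 ± 0.57 (adjusted p = 0.0212) was 1.72 without FA replicate 2 and 4.03 without FA replicate 1, and it was not called without V1 or V2 (adjusted p up to 0.0838). Socs2, a suppressor of cytokine and growth hormone signaling, went from 7.14 and 6.15 to 8.96 and 9.93, a change of 2.80 ± 0.50 (adjusted p = 0.0144). It was lost without V2 or F2 (adjusted p up to 0.112). Of the 20 genes of the EGF receptor and SOCS list, 3 rose, Spsb1, Socs2 and the ligand Ereg, and none fell. Spsb1 went from 5.49 and 5.54 to 8.38 and 8.63 (2.99 ± 0.17, 7.96-fold, adjusted p = 0.000154) and was stable. Socs3 changed by 0.61, Socs6 by 0.46 and Hbegf by 0.29, none of them called. The Ereg arrays read 4.55 and 5.12 with vehicle and 7.05 and 5.91 with FA, and its call was lost without V1, V2 or F1, with a change of 1.07 without F1 (adjusted p = 0.146).

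Genes of the outer, differentiating layers were next. Of 19 tested kallikreins and other epidermal proteases, 7 rose and none fell, with a median of 0.62, and 13 had both FA arrays above both vehicle arrays, against 23.8% of all genes. Klk6 had log2 signals of 5.33 and 6.14 with vehicle and 8.81 and 10.20 with FA, a change of 3.77 ± 0.59 (13.7-fold, adjusted p = 0.00851). It lies in the kallikrein gene cluster on chromosome 7 with Klk9, which rose by 1.01, Klk11, which rose by 0.90, and Klk5, a desquamation protease whose 0.67 was not called (adjusted p = 0.0656). Prss8, an activator of epithelial sodium channels, rose by 0.75 and Prss27 by 1.48. Tmprss2 went from 4.80 and 4.52 to 7.32 and 8.01 (3.01 ± 0.34, 8.03-fold, adjusted p = 0.00272) and was stable. The list had 1 to 6 rises without 1 array, the fewest without FA replicate 2. Klk6 was lost without F2 (3.07, adjusted p = 0.0741). Klk9, Klk11 and Prss27 (0.97 without V1) were each lost without V1, F1 or F2, and Prss8 without each of the 4 arrays, with adjusted p-values of up to 0.163, 0.134, 0.167 and 0.262.

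The structural proteins of the cornified envelope form its protein shell. Among 19 envelope precursors and filaggrin-like proteins, 5 rose (26.3%, against 3.29% of all genes) and none fell, with a median of 0.31. Ivl, involucrin, went from 10.24 and 10.19 to 11.31 and 11.49 (1.19 ± 0.15, adjusted p = 0.00389) and was stable. Rptn, the filaggrin-like repetin, went from 5.89 and 5.84 to 7.87 and 9.20, a change of 2.67 ± 0.51 (6.37-fold, adjusted p = 0.0188). It was lost without V1, V2 or F2 (2.01 and adjusted p = 0.124 without F2). Casp14 and Asprv1, proteases that process filaggrin, rose by 0.87 and 0.70, from 10.43 and 10.86 to 11.51 and 11.53 and from 13.58 and 13.85 to 14.43 and 14.40. Both were lost without V1, F1 or F2, with adjusted p-values of up to 0.147 and 0.181, and the list had 1 rise without V1, 3 without V2, 2 without F1 and 1 without F2.

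Among 21 LCE and SPRR genes, 2 rose, Lce1e and Lce1h, and none fell, while 16 had both FA arrays above both vehicle arrays, again against 23.8% of all genes. The median was 0.90. Several had large changes that were not called. Sprr1b read 4.67 and 7.54 with vehicle and 8.89 and 8.92 with FA (adjusted p = 0.17), and Lce3b read 5.54 and 8.36 against 8.76 and 8.59 (adjusted p = 0.202). In both genes vehicle replicate 2 was close to the FA arrays and vehicle replicate 1 was far below. Sprr2a1 was lower with FA, at 7.11 and 7.50 against 8.18 and 7.81 (-0.69, adjusted p = 0.0872). The list had 5 rises and a median of 1.16 without V2, 1 rise and a median of 0.43 without V1, and 1 rise without F2. The call of Lce1h (1.27, adjusted p = 0.0498) was lost without V1, F1 or F2 (adjusted p up to 0.22).

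Transglutaminases, which cross-link the envelope, were read together with epidermal lipoxygenases. Of 12 tested members of this list, 4 rose (33.3%) and 1 fell (8.33%), against 3.29% and 3.65% of all genes. The rises were Tgm2, Alox12b, Sdr9c7 and Aloxe3. Alox12b went from 9.33 and 9.98 to 11.01 and 10.96 (1.33 ± 0.23, adjusted p = 0.0119). Sdr9c7 went from 8.11 and 8.37 to 9.56 and 9.23 (1.16 ± 0.17, adjusted p = 0.00729). Alox12b, Sdr9c7 and Aloxe3 were not stable. Tgm2, the tissue transglutaminase, rose by 2.28 ± 0.41 from 6.57 and 5.57 to 7.77 and 8.93 (adjusted p = 0.0143), and Tgm1, the main cross-linker of the envelope, read 9.76 and 10.10 against 10.82 and 10.51 (0.74, adjusted p = 0.0656). Alox12, a 12-lipoxygenase, fell by 1.45 on the log2 scale, from 8.75 and 9.05 to 7.42 and 7.47 (adjusted p = 0.00389), and was stable. Its relative Alox12e read 10.57 and 11.80 against 9.79 and 9.88 (adjusted p = 0.0541). Tgm2 was lost without V2 or F2 (adjusted p up to 0.0955). Among 11 suprabasal and stress keratins, Krt80 rose by 0.60 and the stress keratin Krt17 fell by 0.66, both lost without each array in turn, with adjusted p-values of up to 0.194 and 0.275. None of 15 basal keratinocyte genes was called. Krt5, the basal keratin, read 11.21 and 11.41 with vehicle and 11.24 and 10.999 with FA.

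Protease inhibitors and antimicrobial proteins included several of the largest rises. Serpinb6c, an intracellular protease inhibitor, went from 5.07 and 4.86 to 6.79 and 7.17 (2.01 ± 0.31, adjusted p = 0.00832). Serpina3n went from 6.99 and 5.53 to 8.56 and 8.49 (2.26 ± 0.38, adjusted p = 0.0111). Lcn2, a lipocalin that withholds iron from bacteria, was below background with vehicle (4.46 and 4.43) and read 6.50 and 7.93 with FA, at least 5.98-fold higher (adjusted p = 0.00549), and was stable. Serpinb6c was lost without F2 (1.82, adjusted p = 0.0806) and Serpina3n without F1 or F2 (up to 0.0815). Of 17 antimicrobial genes tested, 5 rose, none fell and the median was 0.73 (0.18 without V2 and 1.14 without F1). The rises include Defb8, which passed the detection filter only through the wild-type FA arrays, where it was high. The beta-defensin Defb14 rose by 1.81, from 9.21 and 8.89 to 10.77 and 10.95, and was lost without F2 (1.72, adjusted p = 0.0574). S100a8, of which neutrophils hold much, read 7.04 and 4.48 with vehicle and 6.60 and 7.83 with FA, so that its groups overlapped. Neutrophil markers, of which 3 of 11 were tested, summed to 245 and 104 with vehicle and to 441 and 765 with FA. Whether neutrophils took part in the rises of Lcn2 or Mpo was not tested.

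**Figure D3:**
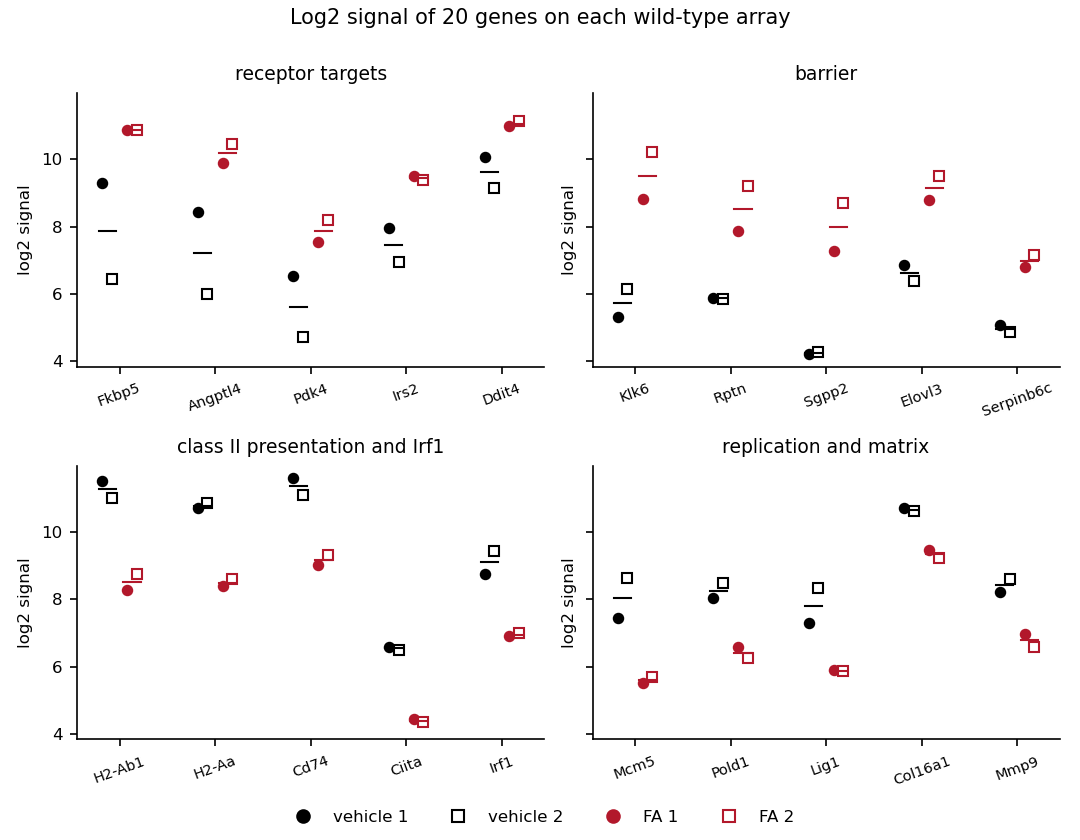
Log2 signal (vertical axis) of 20 genes on each of the 4 wild-type arrays; filled circles are replicate 1, open squares replicate 2, and short lines the group means. The FA arrays (red) lie above the vehicle arrays (black) in the upper panels and below in the lower panels, and Fkbp5 has the widest vehicle spread of the genes shown, 9.31 against 6.45.

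Lipid genes of the barrier and of droplets were examined next. Ceramides, made and remodelled by sphingolipid enzymes, fill the spaces between cornified cells. Of 33 sphingolipid genes, 7 rose (21.2%) and 1 fell (3.03%), against 3.29% and 3.65% of all genes. The rises include Sgpp2, Degs2 and St3gal5. These passed the detection filter only through the wild-type FA arrays, where they were high, which limits their calls and the share of rises. Sgpp2, a phosphatase of sphingosine-1-phosphate, was below background with vehicle (4.21 and 4.28) and read 7.29 and 8.71 with FA, at least 10.3-fold higher (adjusted p = 0.00179). Neu2, a sialidase that trims gangliosides, went from 6.66 and 6.51 to 8.47 and 9.81 (2.56 ± 0.39, adjusted p = 0.00764). Both were stable. Degs2, which makes phytoceramides, was below background with vehicle (4.25 and 4.21) and read 5.98 and 8.16 with FA, at least 5.41-fold higher, with a change of 1.75 without F2 and no call without V1 or V2 (adjusted p up to 0.0759). The commoner desaturase Degs1 read 11.12 and 11.48 against 11.76 and 12.03 and was not called. Smpd3, Gba2 and Abca12, which hydrolyse sphingomyelin and glucosylceramide and load lamellar bodies, rose by 1.14, 1.08 and 0.88. The ceramidase Acer1 fell by 0.83, from 11.75 and 11.81 to 10.90 and 10.99. The calls of Smpd3 and Gba2 were lost without F1 or F2 (up to 0.105 and 0.0709), and those of Abca12 and Acer1 without V2, F1 or F2 (up to 0.109 for each).

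In the lipolysis and lipid droplet list, 4 of 22 rose (18.2%, against 3.29% of all genes), none fell, and the median was 0.82. Plin5, a droplet coat protein, went from 4.89 and 4.80 to 6.66 and 7.67 (2.32 ± 0.29, adjusted p = 0.00366), and was stable. Hilpda, an inhibitor of triglyceride lipase, went from 7.77 and 7.94 to 9.61 and 10.88 (2.39 ± 0.42, adjusted p = 0.0138). That lipase, Pnpla2, rose too, from 9.32 and 9.13 to 10.17 and 10.41 (1.07 ± 0.19, adjusted p = 0.0151). Angptl4, an inhibitor of lipoprotein lipase and a GR target, read 8.43 and 5.99 against 9.89 and 10.47, a change of 2.97 that was 1.75 without V2. Angptl4 and Pnpla2 were lost without V2, F1 or F2 (adjusted p up to 0.181 and 0.116) and Hilpda without V1, V2 or F2 (up to 0.0844). The list had 3 rises without V1, 2 without V2, 3 without F1 and 1 without F2.

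Fatty acid elongases moved unevenly. Elovl3, which makes very long chain fatty acids in sebaceous glands and follicles, went from 6.86 and 6.38 to 8.78 and 9.49 (2.52 ± 0.44, 5.72-fold, adjusted p = 0.0135). Elovl7 rose by 1.16, from 5.37 and 4.98 to 6.05 and 6.62. Elovl4, needed for the ultra-long acyl chains of barrier ceramides, read 13.16 and 12.70 against 13.46 and 13.89 and was not called. Elovl6 read 11.71 and 10.81 against 10.20 and 10.80, the higher FA array just under the lower vehicle array, and was not called (adjusted p = 0.3). The desaturase Scd2 fell by 0.89. Elovl3 was lost without V2, F1 or F2 (2.16 without F2, adjusted p up to 0.107), Elovl7 without V2 or F2 (up to 0.124) and Scd2 without V1, F1 or F2 (up to 0.191). Summed sebaceous gland marker signal was 4321 and 2626 with vehicle and 3451 and 6152 with FA, and Elovl3 was the 1 called member of the 8 tested. Whether gland tissue in the samples took part in the change of Elovl3 was not tested.

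Among 25 sterol genes, Fdps and Sqle of the mevalonate and squalene steps fell by 1.19 and 0.91, and Cyp27a1, a sterol hydroxylase, rose by 1.57. Fdps read 12.04 and 11.76 with vehicle and 10.73 and 10.68 with FA. Fdps and Sqle were lost without F1 or F2 (adjusted p up to 0.0806 and 0.097), and Cyp27a1 without V2, F1 or F2 (up to 0.136). Of 26 cytochrome P450 and retinoid genes, 5 rose (19.2%, against 3.29% of all genes) and none fell. Cyp2b10, a xenobiotic-induced P450, went from 8.82 and 8.28 to 10.89 and 11.25 (2.52 ± 0.24, 5.74-fold, adjusted p = 0.00179) and was stable. Cyp26b1, which degrades retinoic acid, and Crabp2, which carries it, rose by 0.97 and 0.93, lost without F1, F2 or 1 of the vehicle arrays, V2 for Cyp26b1 and V1 for Crabp2 (adjusted p up to 0.121 and 0.255).

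**Figure D4:**
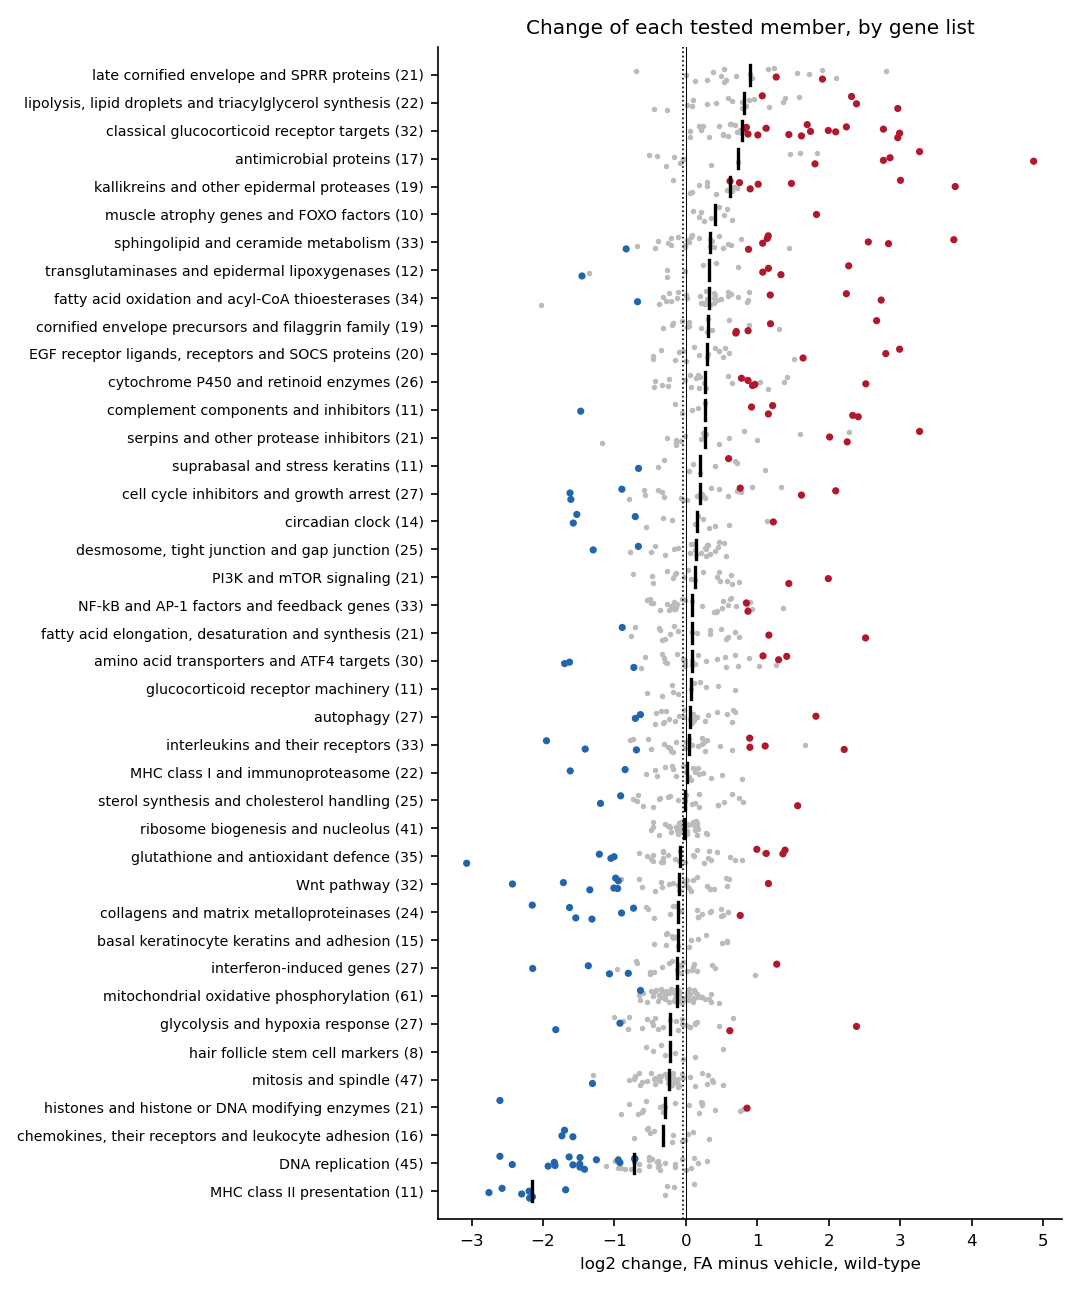
Log2 change with FA in wild-type epidermis (horizontal axis) of each tested member of 41 gene lists (rows, number tested in parentheses), ordered by their median. Red and blue points are called rises and falls, grey points were not called, black bars are list medians and the dotted line is the median of all tested genes (-0.03); MHC class II presentation lies lowest at -2.15.

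The antigen presentation genes fell furthest as a group. MHC class II molecules show peptides to helper T cells and are carried in resting epidermis mainly by Langerhans cells. Of 11 tested members of the class II list, 7 fell and none rose, with a median of -2.15, against 3.65% falls over all genes. H2-Ab1, the beta chain of I-A, went from 11.53 and 11.02 to 8.28 and 8.76, a change of -2.76 ± 0.31 (6.76-fold lower, adjusted p = 0.00292). Its partner H2-Aa went from 10.71 and 10.87 to 8.39 and 8.59 (-2.30 ± 0.28, adjusted p = 0.00347). H2-Eb1 went from 10.87 and 10.34 to 7.90 and 8.16 (-2.57 ± 0.32, adjusted p = 0.00366). In all 3 the lower vehicle array lay far above the higher FA array.

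The peptide-loading chaperone H2-DMa fell by 2.19 and its partner H2-DMb1 by 1.68. Cd74, the invariant chain, read 11.60 and 11.11 against 9.02 and 9.32 (-2.19 ± 0.31, adjusted p = 0.00586). Ciita, the master activator of class II transcription, went from 6.60 and 6.50 to 4.44 and 4.36, below background on both FA arrays, and was at least 3.70-fold lower (adjusted p = 0.00112). Of the 4 members not called, H2-Oa and H2-Ob were near background, the protease Ctss read 5.49 and 5.96 against 5.38 and 5.51, and Rfxap, a subunit of the factor that binds class II promoters, 7.37 and 7.49 against 7.53 and 7.55. The list kept 7 falls without each of vehicle replicate 1, vehicle replicate 2 and FA replicate 2, and 6 without FA replicate 1, where Cd74 was not called (-2.04, adjusted p = 0.0593).

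Markers of the cells that carry class II, and of T cells, were read beside these genes. Cd207 (langerin), which defines Langerhans cells, read 9.44 and 8.66 with vehicle and 7.97 and 8.01 with FA (-1.06, adjusted p = 0.0764). Of 11 tested Langerhans cell and macrophage markers, all 11 were lower with FA, 3 were called (Adgre1, Cd52 and Tyrobp), and their median was -0.33. Summed signal of these markers was 3124 and 2369 with vehicle and 1847 and 1825 with FA. T cell markers, with Cd3g at 8.71 and 7.65 against 6.65 and 6.67, had 2 called falls of 9 tested, and summed to 1968 and 1189 against 844 and 751. Cd3g was -0.99 without V1 and was lost without V1, F1 or F2 (adjusted p up to 0.198). Adgre1, Cd52 and Tyrobp were lost without each of the 4 arrays (up to 0.142, 0.254 and 0.15). In such bulk samples fewer cells of a type and less RNA per cell cannot be told apart.

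The fall reached some class I and interferon genes. H2-M2, a class Ib gene of the MHC region, went from 11.44 and 11.14 to 8.39 and 8.44 (-2.88 ± 0.23, 7.34-fold lower, adjusted p = 0.000761). Of 22 class I and immunoproteasome genes on the list, Psmb10 and Psmb9, catalytic subunits of the immunoproteasome, fell by 1.62 and 0.85, and the median was 0.02. Irf1, a transcription factor of the interferon response, went from 8.75 and 9.45 to 6.92 and 6.99 (-2.14 ± 0.27, adjusted p = 0.00389). Of 27 interferon-induced genes 4 fell, Irf1, Irgm2 (-1.36), Gbp2 (-1.07) and Gbp2b (-0.81), and Ly6e rose by 1.27. H2-M2, Psmb10 and Irf1 were stable. Psmb9 and Gbp2b were lost without each of the 4 arrays (adjusted p up to 0.193 and 0.23), Irgm2 and Gbp2 without V2, F1 or F2 (up to 0.118 and 0.145), and Ly6e without F1 or F2 (up to 0.0565).

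Cytokine genes moved in both directions. Of 33 interleukins and receptors, 4 rose (12.1%) and 3 fell (9.09%), against 3.29% and 3.65% of all genes. Il33, an alarmin stored in keratinocyte nuclei, went from 7.49 and 8.46 to 5.86 and 6.19 (-1.95 ± 0.29, adjusted p = 0.00729). Il15, which sustains epidermal T cells, went from 7.91 and 7.85 to 6.37 and 6.58 (-1.41 ± 0.20, adjusted p = 0.0066). Il13ra2, a decoy receptor for IL-13, went from 4.97 and 4.80 to 6.53 and 7.67 (2.22 ± 0.46, adjusted p = 0.0254). Il1a and Il18, kept as precursors in keratinocytes, rose by 1.11 and 0.90. Il33 and Il15 were lost without F1 (-1.79 and -1.30, adjusted p = 0.068 and 0.0615), Il13ra2 without V1, V2 or F2 (up to 0.16), Il18 without V1, F1 or F2 (up to 0.164) and Il1a without each of the 4 arrays (up to 0.114).

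Among 16 chemokines, chemokine receptors and leukocyte adhesion molecules, 3 fell (18.8%, against 3.65% of all genes) and none rose. Cxcl12 went from 8.19 and 7.07 to 5.63 and 6.16 (-1.73), Cx3cl1, a membrane-bound chemokine, from 6.82 and 7.30 to 5.57 and 5.40 (-1.58), and the adhesion molecule Icam1 from 7.10 and 6.89 to 5.37 and 5.23 (-1.70). Their adjusted p-values were 0.0237, 0.00682 and 0.0131, and Cx3cl1 was lost without F2 (up to 0.0649), Cxcl12 and Icam1 without V1, F1 or F2 (up to 0.176 and 0.0961). Of 33 NF-kB and AP-1 factors and feedback genes, 2 rose (6.06%, against 3.29% of all genes) and none fell. These were Nfkbia, lost without V2, F1 or F2, and Dusp1, lost without each of the 4 arrays (adjusted p up to 0.222 and 0.289).

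Of 11 tested complement genes 5 rose and 1 fell, and without F2 3 rose and none fell. On all 4 arrays the rises were 45.5% of the list and the fall 9.09%, against 3.29% and 3.65% of all genes. C1qa, a chain of the recognition molecule of the classical pathway, went from 4.68 and 4.49 to 7.15 and 6.86 (2.41 ± 0.18, 5.33-fold, adjusted p = 0.000585), and C1qc, below background with vehicle (4.43 and 4.33), read 5.46 and 5.61, at least 1.87-fold higher. Clu, an inhibitor of the terminal complex, went from 10.06 and 10.23 to 11.41 and 11.31 (1.22 ± 0.15, adjusted p = 0.00389). C2, a protease of the same pathway, fell from 7.12 and 7.11 to 5.82 and 5.47 (-1.47 ± 0.21, adjusted p = 0.0068). C1qa and Clu were stable. C2 and C1qc were lost without F2 (adjusted p = 0.0649 and 0.0505). C1q is made largely by macrophages. All 11 Langerhans cell and macrophage markers tested were lower with FA, with a median of -0.33. Adgre1 fell furthest of these, from 7.12 and 7.24 with vehicle to 6.07 and 6.07 with FA, a call that was not stable. The cell source of the C1q rises was not tested.

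Genes of DNA replication copy the genome before division. Of 45 tested members 16 fell and none rose, with a median of -0.72, and in 36 both FA arrays lay below both vehicle arrays, as they did in 30.3% of all genes. Mcm5, a subunit of the replicative helicase, had log2 signals of 7.44 and 8.64 with vehicle and 5.53 and 5.70 with FA, a change of -2.43 ± 0.32 (5.39-fold lower, adjusted p = 0.0047). Of its partners, Mcm2 fell by 1.83, Mcm4 by 1.58 and Mcm6 by 1.48, while Mcm3 and Mcm7 were near background and not called. Pold1, the catalytic subunit of polymerase delta, went from 8.04 and 8.48 to 6.59 and 6.26 (-1.84 ± 0.20, adjusted p = 0.0026). Lig1, which joins Okazaki fragments, went from 7.30 and 8.33 to 5.90 and 5.88 (-1.93 ± 0.28, adjusted p = 0.00682). Mcm5 and Pold1 were stable, and in all 6 of the genes named as falling vehicle replicate 2 was the highest array.

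Without V2, 9 members of the list fell and the median was -0.53. Without V1, 20 fell, and without either FA array 3. Lig1 and Mcm2 were lost without F1 or F2 (adjusted p up to 0.062 and 0.11), Mcm4 without F2 (-1.54, 0.0508) and Mcm6 without V2, F1 or F2 (up to 0.19). Without V2 the changes were -1.41 in Lig1, -1.18 in Mcm2, -1.29 in Mcm4 and -0.86 in Mcm6.

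The promoter windows of the replication genes were searched for the E2F sequences TTTGGCGC and TTTCCCGC and for CCAAT, each on both strands. An E2F sequence was in windows of 11 of 39 members (28.2%), against 2.95% of all tested genes, 2.88% of called rises and 5.49% of called falls. CCAAT was in 56.4% of the members and 42.8% of all. Among the 14 called members with a window, Cdt1, Mcm5, Mcm6 and Pold1 held an E2F sequence. The window of Mcm5, the member that fell most among these 4, was chr8:75109259-75109558 on the plus strand. Capitals mark an E2F sequence at position -149 and CCAAT at -77, -22 and 7, counted from the start.
Mcm5: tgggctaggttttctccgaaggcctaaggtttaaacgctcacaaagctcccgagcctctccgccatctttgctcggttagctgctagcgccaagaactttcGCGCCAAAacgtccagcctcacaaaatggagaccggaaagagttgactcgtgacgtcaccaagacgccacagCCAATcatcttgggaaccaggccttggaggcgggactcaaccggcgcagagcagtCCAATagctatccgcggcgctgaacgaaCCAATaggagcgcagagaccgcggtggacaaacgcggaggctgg
E2f1, which encodes a factor that binds such sequences, went from 6.18 and 6.76 to 4.87 and 4.83 (-1.62 ± 0.20, adjusted p = 0.00366) and was stable. The cyclin Ccnd1 went from 10.52 and 10.90 to 9.29 and 8.91 (-1.61 ± 0.29, adjusted p = 0.0151), and was lost without V2, F1 or F2 (adjusted p up to 0.116). Ccnd2 read 9.83 and 10.44 against 9.41 and 9.27 and was not called.

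Mitosis genes were read beside the replication genes. Of 47 tested, 1 fell (2.13%, against 3.65% of all genes), none rose, and the median was -0.24. In 17 both FA arrays lay below both vehicle arrays, against 30.3% of all genes. The median was 0.07 without V2 and -0.63 without V1. The fall was in Cdca7 (-1.31), which was stable, and without V1 there were 2. The difference between the lists was not tested.

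Wnt pathway and matrix genes were next. Of 32 Wnt genes 7 fell (21.9%) and 1 rose (3.12%), against 3.65% and 3.29% of all genes. Nkd2, a feedback inhibitor that binds Dishevelled, went from 6.88 and 7.01 to 4.59 and 4.45, below background on both FA arrays and at least 4.88-fold lower (adjusted p = 0.00138). Sfrp1, a secreted Wnt antagonist, went from 7.40 and 7.59 to 5.84 and 5.73 (-1.71 ± 0.17, adjusted p = 0.00194). Both were stable. The others were the receptors Fzd2 and Fzd10, the ligand Wnt5a, the secretion factor Wls and Dkk3, with changes from -0.94 (Wls) to -1.34 (Dkk3), and each was lost without F1, F2 and 1 of the vehicle arrays (V1 for Wls, V2 for the others, adjusted p up to 0.19 in Wnt5a). Porcn, the acyltransferase of Wnt ligands, rose by 1.16, from 5.83 and 6.44 to 7.16 and 7.41, and was lost without V1, F1 or F2 (adjusted p up to 0.132). The list had 7 falls without V1, 3 without V2 and 2 without either FA array.

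Of 24 collagens and matrix metalloproteinases with their inhibitors, 6 fell (25%) and 1 rose (4.17%), against 3.65% and 3.29% of all genes. Timp3, a matrix-bound inhibitor of metalloproteinases, went from 8.33 and 8.27 to 5.86 and 6.44 (-2.15 ± 0.23, adjusted p = 0.00231). Mmp9, gelatinase B, went from 8.22 and 8.61 to 6.98 and 6.60 (-1.63 ± 0.19, adjusted p = 0.00321). Col16a1, a collagen of the dermal-epidermal junction, went from 10.72 and 10.61 to 9.46 and 9.24 (-1.31 ± 0.16, adjusted p = 0.00353). All 3 were stable. Col7a1, which forms anchoring fibrils, fell by 0.90 and Col18a1 by 1.54, the latter -0.85 without V2. Col7a1 was lost without V1, F1 or F2 and Col18a1 without V2, F1 or F2 (adjusted p up to 0.136 and 0.222). Gja1, the gap junction protein connexin 43, went from 11.79 and 12.03 to 10.52 and 10.71 (-1.30 ± 0.17, adjusted p = 0.00443), 1 of 2 falls and no rise among 25 junction genes. Gja1 was stable.

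The largest fall of all was in Pyy, the gut hormone peptide YY, which went from 8.19 and 10.001 to 5.76 and 4.74 (-3.84 ± 0.53, 14.3-fold lower, adjusted p = 0.00557). It was lost without F2 (-3.33, adjusted p = 0.0545). Ffar2, a receptor for short-chain fatty acids, went from 7.58 and 7.40 to 4.95 and 4.77 (-2.62 ± 0.23, adjusted p = 0.00134), and Gpha2, a glycoprotein hormone subunit, from 7.89 and 7.48 to 5.65 and 5.41 (-2.16 ± 0.23, adjusted p = 0.0025). Wfdc3, a protease inhibitor domain protein, went from 6.79 and 6.63 to below background (4.59 and 4.22), at least 4.14-fold lower. Ffar2, Gpha2 and Wfdc3 were stable. Slc27a3, an acyl-CoA synthetase, read 9.15 and 10.28 against 7.66 and 7.54 (-2.12) and was lost without V2, F1 or F2 (adjusted p up to 0.19). Ccdc27 fell by 2.19 on its probe here, while its other tested probe changed by 0.02.

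Metabolic and clock genes held a few called members each. Among 30 amino acid transporters and ATF4 targets, 3 rose and 3 fell. Slc3a2 and Slc7a5, the chains of the large neutral amino acid transporter, rose from 5.50 and 5.76 to 6.997 and 6.86 (1.30 ± 0.16) and from 9.58 and 8.45 to 10.24 and 10.62 (1.41 ± 0.31). Psat1, an enzyme of serine synthesis, fell from 9.37 and 9.80 to 7.75 and 8.04 (-1.70 ± 0.22, adjusted p = 0.00471). Slc3a2 and Psat1 were stable, and Slc7a5 (0.85 without V2) was lost without V2, F1 or F2 (adjusted p up to 0.185). Gabarapl1, a ubiquitin-like protein of autophagosomes, rose from 7.57 and 7.23 to 9.09 and 9.35 (1.82 ± 0.18, adjusted p = 0.00179), and was stable. It was the 1 rise among 27 autophagy genes (3.7%, against 3.29% of all genes). Atg5 and Lamp2 fell by 0.71 and 0.64 (7.41% of the list, against 3.65%), and both were lost without each array in turn.

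Of 14 circadian genes, 3 fell (21.4%) and 1 rose (7.14%), against 3.65% and 3.29% of all genes. Dbp and Tef, related activators driven by the clock, both fell. Dbp went from 10.33 and 10.26 to 8.75 and 8.69 (-1.58 ± 0.16, adjusted p = 0.00194). Tef went from 10.64 and 10.12 to 8.81 and 8.90 (-1.53 ± 0.20, adjusted p = 0.00487). Nfil3, the repressor that binds the same sites, rose from 7.38 and 6.89 to 8.19 and 8.53 (1.23 ± 0.26, adjusted p = 0.0297). Per3 went from 5.29 and 4.97 to below background (4.31 and 4.54), at least 1.385-fold lower (adjusted p = 0.0414). It was detected on the 2 wild-type vehicle arrays alone, passed the filter only through them, and was not stable. Dbp and Tef were stable and Nfil3 was lost without V2, F1 or F2 (adjusted p up to 0.175). The sources used here give no hour of sampling.

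Of 35 tested members of the glutathione and antioxidant list, 4 rose and 4 fell (11.4% each, against 3.29% and 3.65% of all genes). Hmox1, heme oxygenase 1, rose from 6.23 and 6.40 to 7.89 and 7.46 (1.36 ± 0.18, adjusted p = 0.00518) and was stable. Srxn1 and Txnrd1, which reduce peroxiredoxins and thioredoxin, rose by 1.39 and 0.99. Akr1c18, an aldo-keto reductase placed on this list, fell furthest, from 8.03 and 6.94 to 4.26 and 4.58, below background on both FA arrays. It was at least 7.07-fold lower (adjusted p = 0.0155) and was not stable. The glutathione transferases Gstt3, Gsta2 and Gstm2 fell by 1.21, 1.05 and 1.00. Srxn1 and Gstm2 were lost without V2, F1 or F2 (adjusted p up to 0.0897 and 0.254), Txnrd1 without V1, F1 or F2 (up to 0.297), Gstt3 without F1 or F2 (up to 0.0597) and Gsta2 without each of the 4 arrays (up to 0.126). Among the lists in which nothing was called were the GR machinery (11 genes), basal keratinocyte genes (15), hair follicle stem cell markers (8) and ribosome biogenesis (41). Of 61 oxidative phosphorylation genes 1 fell (1.64%, against 3.65% of all genes).

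The REDD1 KO arrays, which share no array with the wild-type comparison and share its estimate of spread and its detection filter, gave the FA effect in the absence of REDD1. The 2 REDD1 KO FA arrays stood apart from each other in skeletal muscle markers, of which all 13 were higher by more than 1 on the log2 scale in replicate 1 (median difference 6.53). Their part in the REDD1 KO values was not tested. There 2.24% of genes rose and 2.65% fell. Of the wild-type called probes, 130 of the 417 rises and 156 of the 416 falls were called in the same direction in REDD1 KO. A difference between the genotypes in their FA effect was called for 4 of 13131 probes (0.0305%). Class II genes fell in both, with 8 of 11 called in REDD1 KO at a median of -2.56. GR targets had 11 of 32 called rises and a median of 0.87. Replication genes had 7 of 45 called falls and a median of -0.44. Genes with nearly equal change in both genotypes included Ffar2 (-2.62 and -2.59 in wild-type and REDD1 KO), Gja1 (-1.30 and -1.28), Irs2 (1.99 and 2.15) and Cyp2b10 (2.52 and 2.21).

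The called differences were in Defb8, Acot5, Mpo and Mgll. For several barrier and lipid genes named above, the difference was not called. Elovl3 changed by 2.52 in wild-type and -1.51 in REDD1 KO (adjusted p of the difference 0.185). Rptn changed by 2.67 and -0.34 (adjusted p = 0.33), Socs2 by 2.80 and -0.43 (adjusted p = 0.33), Hilpda by 2.39 and -0.49 (adjusted p = 0.312) and Sgpp2, below background on all 4 REDD1 KO arrays, by 3.75 and 0.16 (adjusted p = 0.138). The LCE and SPRR list had no called gene in REDD1 KO and a median of 0.23, and the lipolysis list 1 rise, 1 fall and a median of 0.09. Sebaceous gland markers had a median of 0.82 in wild-type and -1.21 in REDD1 KO. Elovl3 is itself on that marker list, and Plin2 and Awat2 are on both it and the lipolysis list, so these values are not independent. The part of gland tissue in these differences was not tested.

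**Figure D5:**
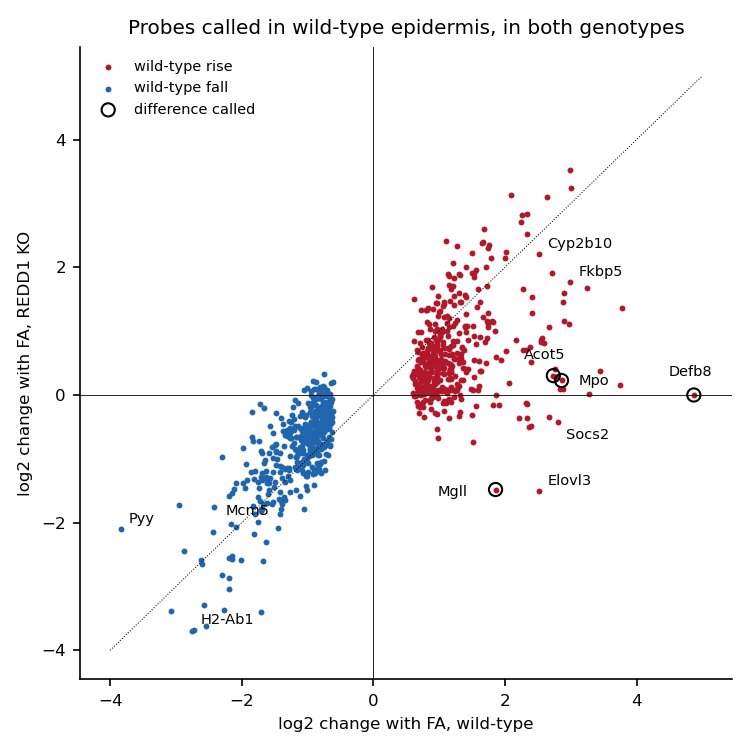
Log2 change with FA in REDD1 KO (vertical axis) against that in wild-type epidermis (horizontal axis) for the 417 rises (red) and 416 falls (blue) called in wild-type, with a dotted line at equality. Circles mark the 4 probes whose difference between genotypes was called, and Elovl3, at 2.52 and -1.51, was not among them.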

How the data were processed

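Per the labels and the study's methods, biotin-labelled epidermal RNA was hybridized to 8 Illumina MouseRef-8 v2.0 arrays. The authors deposited bead intensities of 25697 probes with a detection p-value each, and log2 values made with neqc of limma (version not given in the sources used here), which subtracts a background fitted on negative controls, adds an offset of 16 and applies quantile normalization. The normalized log2 values were tested as deposited. Values recomputed from the intensities differed by at most 5e-09. In all, 2 broken text lines were left out.

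All 8 arrays were fitted in limma 3.58.1 (R 4.3.3) with a mean for each group. Variances were moderated by eBayes (residual df 4, prior df 5.08), tests were two-sided, and Benjamini-Hochberg adjustment ran over 13131 probes. On simulated data it called 64.2% of probes changed by a log2 of 1, 100% of those changed by 2 and 97% of those changed by 3. The number of arrays limits the precision, and median intensities (95.9 to 107) lay close to the negative controls (90.5 to 99.3). Folds against a group below background on both arrays are lower bounds ("at least"): the brighter group's mean is set against the dim group's, each dim array taken at no less than its lowest detected signal. Defb8, Sgpp2, Degs2 and Nmu were detected on the 2 wild-type FA arrays alone, and passed the filter only through that group. St3gal5 was detected on these and on 1 REDD1 KO vehicle array, and also passed only through the wild-type FA arrays. Per3 was detected on the 2 wild-type vehicle arrays alone, and passed only through them.

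Genes in lists were read from their brightest probe. Symbols were assigned through platform annotation, and 1719 probes had none. Named genes were drawn from the 20 largest rises and falls, up to 4 called members per list, genes of the study, probes called for the genotype difference and relatives of named genes. Not all of these are described. Those left out include Ces4a and Wfdc12 among the largest rises and Tmem45a2 and Uhrf1 among the largest falls. The members, the lists and this rule were chosen with earlier results of these data known. Alternatives were other background corrections, normalizations, filters and eBayes settings, a replicate block, the wild-type arrays alone and leaving out each array. The counts per list without each array were chosen after seeing the data. Plots were made in matplotlib 3.10.9 (Python 3.11.15).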

Additional observations from a re-analysis of the deposited data

Results flagged for a closer look

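The FA effect differed between the genotypes, by the test of the difference itself, in 4 probes. Values are the log2 change in REDD1 KO minus that in wild-type epidermis. Defb8, a beta-defensin, differed by -4.87 (4.87 in wild-type and 0.00 in REDD1 KO, adjusted p = 0.00485). It was below background on both wild-type vehicle arrays and all 4 REDD1 KO arrays, so that its rise in wild-type was at least 24.0-fold. Defb8 thus passed the detection filter only through the 2 wild-type FA arrays, where it was high. Without a probe filter its difference was not called (adjusted p = 0.108). Acot5, a peroxisomal acyl-CoA thioesterase, differed by -2.43 (2.74 and 0.30, adjusted p = 0.0139). It was below background on both wild-type vehicle arrays, with a rise of at least 6.07-fold there. Mpo, the neutrophil enzyme myeloperoxidase, differed by -2.63 (2.86 and 0.23, adjusted p = 0.0162), on 1 of its 3 tested probes. Mgll, monoacylglycerol lipase, differed by -3.34 (1.86 and -1.48, adjusted p = 0.0419), on 1 of its probes. Leaving out 1 of the 8 arrays kept the sign of all 4 differences. Without REDD1 KO vehicle replicate 2 none of them was called (adjusted p = 0.0516 for Defb8, 0.118 for Acot5, 0.118 for Mpo and 0.279 for Mgll). The differences in Acot5, Mpo and Mgll also lost their call without wild-type vehicle replicate 1 (adjusted p = 0.0732, 0.0765 and 0.13), wild-type vehicle replicate 2 (0.0515, 0.0811 and 0.136) or wild-type FA replicate 2 (0.078 for each), and that in Mgll without REDD1 KO FA replicate 1 (0.0922). The brighter probe of Mgll changed by 0.95 in wild-type and -1.55 in REDD1 KO (adjusted p of the difference 0.37).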

How the results depend on the processing

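The 417 rises and 416 falls ranged from 377 to 534 and from 330 to 551 under the other background correction, offset, normalization, detection filters, eBayes setting and wild-type arrays alone, except that without a probe filter, where 25697 probes are adjusted together, 269 rose and 308 fell. At an unadjusted p under 0.05 there were 1470 and 1510. Leaving out 1 wild-type array gave 72 to 242 rises and 70 to 260 falls, and leaving out 1 REDD1 KO array 332 to 444 and 304 to 459. In each of these fits the group left with 1 array was assumed to vary like the others. The 4 genotype differences became 0 without background correction, 0 without a probe filter, 0 over probes detected on all 8 arrays, 1 with an offset of 50, 8 with trended and robust eBayes, 0 to 31 without 1 array and 1302 at an unadjusted p under 0.05. The labels number the replicates, but the differences between replicates 1 and 2 correlated at -0.107 to 0.252 over 6 pairs of groups (-0.069 between wild-type vehicle and FA, over 0.1 in 3), so the numbers were not taken as pairing. With a replicate block there were 394 rises, 392 falls and 4 genotype differences. Median centring moved the median change of all probes from -0.02 to 0.03. Of 183 called genes, 95 kept their call under every processing alternative that could be run and 48 without each wild-type array. Of 57 further probes of these genes, 26 had the same call, 30 the same direction without a call, and 1, of Ccdc27, the opposite sign (0.0242). Causes were not tested. Signals near background and 2 arrays per group limit what can be called.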
